A study of Mus musculus with 11 samples.

Results

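Lipid-associated macrophages are the lipid-laden macrophages that gather in steatotic liver, and 10 genes that mark them were followed here in bulk liver RNA: *Trem2*, *Cd9*, *Cd63*, *Gpnmb*, *Cd68*, *Lgals3*, *Fabp5*, *Itgax*, *Mmp12* and *Lyz2*. They were taken by symbol from a count table of 46603 genes. All 10 were found, and all 10 were among the 13880 genes abundant enough to be tested. The livers came from a study of how INT-767 acts on steatohepatitis with fibrosis. Its mice were male and leptin-deficient, of the B6.V-Lep ob/JRj strain (ob/ob), and received the AMLN diet, with much fat, fructose and cholesterol, from an age of 5 to 6 weeks. INT-767 is a bile acid analog that activates the nuclear receptor FXR and the membrane receptor TGR5. The 7 vehicle mice and the 4 INT-767-treated mice (10 mg/kg once daily by gavage) had all been on the diet for 15 weeks before the 8 weeks of treatment, stayed on it throughout, had been selected by a liver biopsy for steatosis and fibrosis, and were housed singly after it. No lean, chow-fed or untreated liver was compared, so each difference is one between vehicle and INT-767 within obese mice with established disease.

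In fatty liver, macrophages derived from blood monocytes take up lipid and the debris of dying cells, and they come to lie around lipid-laden hepatocytes and in the scars. TREM2 is a surface receptor that binds lipids, lipoproteins and apoptotic cells and signals through the adaptor DAP12 (*Tyrobp*) to the kinase SYK. The genes that mark these cells serve lipid handling and the lysosome, and several of them are also made by other macrophages or by other cells of the liver. Whole liver was sequenced, so that fewer macrophages and less RNA of these genes per macrophage cannot be told apart.

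All 10 genes had a lower fitted level with INT-767, and 3 of them fell by the test across all genes: *Cd68*, *Cd63* and *Cd9*. None rose. The 3 that fell were at 44.7%, 47.4% and 59.2% of the vehicle level, and in each the highest INT-767 mouse lay below the lowest vehicle mouse. *Trem2*, the gene most used to name these cells, was lower in 3 INT-767 mice and within the vehicle range in INT-767 mouse 4, and it did not pass. Genes were called at a Benjamini-Hochberg adjusted *p* under 0.05 from edgeR's quasi-likelihood test over the 13880 genes, of which 4.68% were called lower and 5.04% higher. A fold change under 0 on the log2 scale was found for 50.6% of all tested genes, and the median was -1.003 over the 10 genes and -0.01 over all tested genes. With library size alone as the scaling, these medians were -1.23 and -0.22. The unadjusted *p* of the edgeR test was under 0.05 with a lower level for 8 of the 10, against 15.6% of all tested genes. Groups that did not overlap, with all INT-767 mice lower, were found for 3 of the 10 and for 3.64% of all tested genes. The count of members called lower moved with the tool and the correction. It was 6 with DESeq2 (9.86% of all genes), 5 with limma-voom (4.11%), 4 with library size only (7.39%), 5 with an offset for GC content and length (5.86%) and 5 with that offset on protein-coding length (6.01%), each holding *Cd9*, *Cd63* and *Cd68*.

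The promoters of the 3 genes that fell, and of *Trem2* and *Gpnmb*, which did not pass and led the contrasting patterns among mice described further on, are printed to set their start regions side by side. Each is the window from 250 bases before to 50 bases after a start that RefSeq gives the gene, on the GRCm38.p6 build, and written 5′ to 3′ on the strand of the gene. Capitals mark matches, on either strand, to GAGGAA, the core bound by the macrophage factor PU.1 (TTCCTC when read on the other strand), or to TGAGTCA, the site of the AP-1 family (TGACTCA on the other strand).
Cd68, chr11:69666121-69666420, minus strand: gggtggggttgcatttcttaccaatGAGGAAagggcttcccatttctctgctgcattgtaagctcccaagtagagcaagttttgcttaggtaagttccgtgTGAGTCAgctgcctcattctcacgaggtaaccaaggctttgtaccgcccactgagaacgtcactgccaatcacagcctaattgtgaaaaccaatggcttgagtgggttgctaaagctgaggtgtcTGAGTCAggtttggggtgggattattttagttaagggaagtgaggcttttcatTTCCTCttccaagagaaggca
Cd63, chr10:128909095-128909394, plus strand: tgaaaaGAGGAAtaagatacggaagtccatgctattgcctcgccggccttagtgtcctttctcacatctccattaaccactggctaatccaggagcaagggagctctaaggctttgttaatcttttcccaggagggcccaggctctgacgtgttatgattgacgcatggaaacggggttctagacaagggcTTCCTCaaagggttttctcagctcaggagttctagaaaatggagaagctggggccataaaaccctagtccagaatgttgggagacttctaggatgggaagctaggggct
Cd9, chr6:125494711-125495010, minus strand: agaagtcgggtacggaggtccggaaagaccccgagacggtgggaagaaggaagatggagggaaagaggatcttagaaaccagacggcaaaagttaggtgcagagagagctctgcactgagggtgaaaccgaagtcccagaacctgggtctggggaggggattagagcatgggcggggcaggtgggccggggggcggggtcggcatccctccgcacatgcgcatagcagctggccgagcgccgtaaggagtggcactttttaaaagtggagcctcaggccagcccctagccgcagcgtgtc
Trem2, chr17:48346151-48346450, plus strand: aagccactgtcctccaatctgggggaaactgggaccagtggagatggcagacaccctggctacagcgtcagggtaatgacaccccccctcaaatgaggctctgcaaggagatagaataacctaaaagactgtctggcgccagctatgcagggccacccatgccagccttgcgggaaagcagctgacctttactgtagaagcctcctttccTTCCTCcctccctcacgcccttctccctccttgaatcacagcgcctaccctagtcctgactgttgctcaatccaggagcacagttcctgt
Gpnmb, chr6:49036268-49036567, plus strand: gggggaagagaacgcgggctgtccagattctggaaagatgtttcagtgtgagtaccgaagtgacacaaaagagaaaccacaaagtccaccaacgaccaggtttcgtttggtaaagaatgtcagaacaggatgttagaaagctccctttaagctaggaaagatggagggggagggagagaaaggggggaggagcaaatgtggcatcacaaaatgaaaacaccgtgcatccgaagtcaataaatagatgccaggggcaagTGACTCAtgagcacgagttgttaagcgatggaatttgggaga
The *Cd63* window lies 8356 bases inside the gene as GENCODE bounds it, at a later start than its first, and the other 4 lie within 31 bases of the GENCODE start. The *Cd68* window held both motifs at 2 places each, the *Cd63* window held GAGGAA at 2 places, the *Trem2* window held it once, and the *Gpnmb* window held TGAGTCA once. The *Cd9* window held neither. RefSeq windows were found for 9 of the 10 genes, with *Fabp5* unmatched and *Mmp12* holding 2. GAGGAA was present for 4 of the genes (*Trem2*, *Cd63*, *Cd68* and *Mmp12*) and in 28.3% of all 32851 promoter windows of this length. TGAGTCA was present for 4 (*Gpnmb*, *Cd68*, *Itgax* and *Mmp12*) and in 5.20% of all windows. CACGTG, the E-box that the lysosomal regulators of the MiT/TFE family bind, was matched in none of the member windows and in 7.15% of all. The motifs share no overlap, and a match describes only the letters.

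Levels are given as CPM, counts scaled to library size with TMM factors, for each mouse. Per kilobase of the longest protein-coding transcript, the median level in vehicle livers was highest for *Lyz2* at 181 CPM per kilobase, followed by *Cd63* at 92.5, *Lgals3* at 85.0, *Cd9* at 43.1, *Gpnmb* at 30.8, *Trem2* at 24.8, *Cd68* at 23.0, *Fabp5* at 15.3, *Mmp12* at 12.8 and *Itgax* at 3.85. The vehicle ranges of *Cd63* and *Lgals3* overlapped, as did those of each neighbouring pair from *Cd9* down to *Mmp12*. *Lyz2* stood apart at the top, with its lowest vehicle value of 132 above the highest *Cd63* value of 119 CPM per kilobase, and *Itgax*, at most 6.92, lay below the lowest *Mmp12* value of 10.9.

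*Trem2* (ENSMUSG00000023992, chr17:48346401-48354147, plus strand, GRCm38) encodes the lipid-sensing receptor itself. In vehicle livers it was between 20.2 and 35.1 CPM with a median of 27.0, and in INT-767 mice 1 to 4 it was 10.3, 7.59, 10.7 and 28.1 CPM. INT-767 mice 1, 2 and 3 lay well below every vehicle mouse, and INT-767 mouse 4 lay above the vehicle median, so that the groups overlapped. The log2 fold change was -0.93 ± 0.32 (SE, n = 7 and 4), with a Benjamini-Hochberg adjusted *p* of 0.0744 in edgeR. The two-sided Mann-Whitney test on CPM, computed exactly, gave an unadjusted *p* of 0.0727. Without INT-767 mouse 4 the fold change was -1.52 and the edgeR adjusted *p* 0.00266. With all 11 mice kept, *Trem2* passed with DESeq2 (adjusted *p* = 0.027), limma-voom (0.0435), edgeR on library size only (0.0391) and edgeR with the offset on protein-coding length (0.0238). With the offset on the longest transcript its log2 fold change was -0.59 and the edgeR adjusted *p* 0.289, so that its call turned on the tool and scaling as well as on this 1 mouse.

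Of the members, the tetraspanins *Cd9* and *Cd63* are small membrane proteins that organise other proteins around them, CD9 at the cell surface and CD63 in late endosomes, lysosomes and exosomes. Both are made well beyond macrophages. *Cd9* (ENSMUSG00000030342, chr6:125460266-125494791, minus strand) was between 43.6 and 62.5 CPM in vehicle livers, median 52.9, and 38.4, 24.4, 32.8 and 27.8 CPM in INT-767 mice 1 to 4. *Cd63* (ENSMUSG00000025351, chr10:128900989-128912822, plus strand) was between 92.6 and 131.9 CPM in vehicle livers, median 102.5, and 40.9, 25.4, 54.5 and 79.5 CPM in INT-767 mice 1 to 4. For both genes all INT-767 mice lay below all vehicle mice, by a narrow margin in INT-767 mouse 1 for *Cd9* and in INT-767 mouse 4 for *Cd63*. *Cd9* fell by 0.76 ± 0.16 on the log2 scale (SE, edgeR adjusted *p* = 0.0154). *Cd63* fell by 1.08 ± 0.25 (SE, edgeR adjusted *p* = 0.0232). The exact two-sided Mann-Whitney *p* was 0.00606 for each, the smallest that 7 against 4 mice can give, and 0.0807 after Benjamini-Hochberg adjustment over all tested genes. Without INT-767 mouse 2 neither passed (edgeR adjusted *p* = 0.0781 for *Cd9* and 0.0519 for *Cd63*). Of the 75-base windows of their transcripts, 7.63% of those of *Cd9* occur in another gene and 6.47% of those of *Cd63* in its pseudogene *Cd63-ps*, and 10.7% of the exon bases of *Cd9* lie opposite exons of *Gm26728* or *Gm28809*.

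The lysosomal glycoproteins of the list are *Cd68*, which encodes macrosialin, a lysosomal membrane glycoprotein of macrophages, and *Gpnmb*, a membrane glycoprotein that is made in quantity by macrophages under lysosomal load. *Cd68* (ENSMUSG00000018774, chr11:69664213-69666153, minus strand) was between 21.3 and 35.1 CPM in vehicle livers, median 28.2, and 16.6, 8.01, 10.3 and 15.3 CPM in INT-767 mice 1 to 4. Every INT-767 mouse was below every vehicle mouse. *Cd68* fell by 1.16 ± 0.22 on the log2 scale (SE, edgeR adjusted *p* = 0.00943). The exact two-sided Mann-Whitney *p* of *Cd68* was 0.00606 unadjusted, the smallest possible, and 0.0807 after Benjamini-Hochberg adjustment over all tested genes. *Cd68* was the 1 gene of the list that stayed called when any 1 mouse was left out, with edgeR adjusted *p* between 0.00695 and 0.0377. *Gpnmb* (ENSMUSG00000029816, chr6:49036546-49070929, plus strand) was between 52.9 and 165.2 CPM in vehicle livers, median 114, and 89.1, 12.8, 53.6 and 30.0 CPM in INT-767 mice 1 to 4. INT-767 mice 2 and 4 lay below the vehicle range, and INT-767 mice 1 and 3 lay within it, mouse 3 just above vehicle mouse 1, the lowest. The log2 fold change of *Gpnmb* was -1.33 ± 0.45 (SE), the largest in size of the 10 genes but with a wide error (edgeR adjusted *p* = 0.0745). Its exact two-sided Mann-Whitney *p* was 0.0424 unadjusted and 0.180 after Benjamini-Hochberg adjustment over all tested genes. It passed in edgeR without INT-767 mouse 1 (adjusted *p* = 0.0298) or without vehicle mouse 1 (adjusted *p* = 0.0339).

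**Figure D1:**
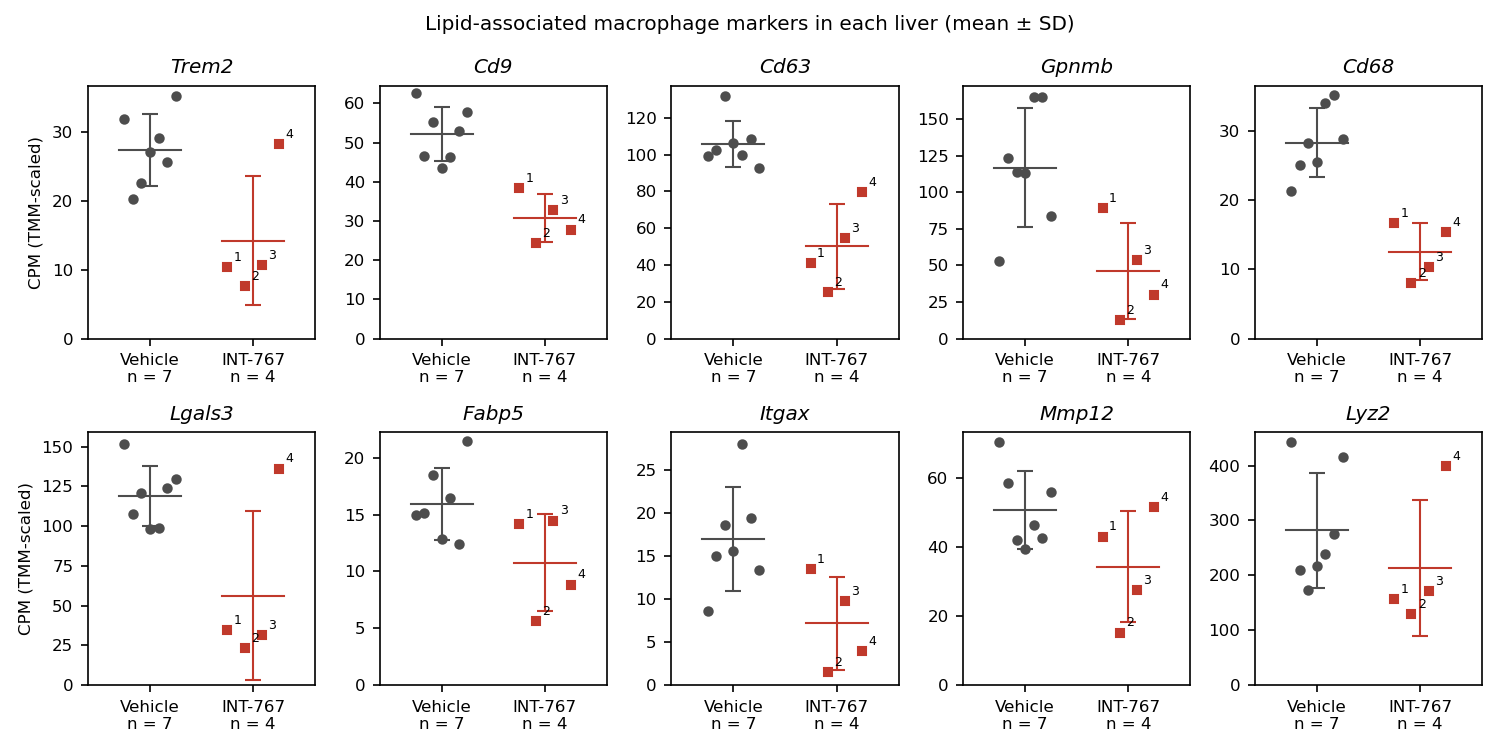
TMM-scaled CPM of the 10 marker genes in each liver, with vehicle mice as grey circles, INT-767 mice as red squares numbered by mouse, and the mean ± SD of each group as a line with bars. The groups are apart for *Cd9*, *Cd63* and *Cd68*, while INT-767 mouse 4 sits among the vehicle mice for *Trem2* at 28.1 CPM, *Lgals3* at 136.0 CPM and *Lyz2* at 398 CPM.

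The lectin galectin-3 (*Lgals3*) binds damaged lysosomes and is secreted by activated macrophages, and *Fabp5* carries fatty acids in the cytoplasm. *Lgals3* (ENSMUSG00000050335, chr14:47367751-47386160, plus strand) was between 98.3 and 151.4 CPM in vehicle livers, median 121, and 34.6, 23.2, 31.3 and 136.0 CPM in INT-767 mice 1 to 4. The first 3 of these mice were far below every vehicle mouse, and INT-767 mouse 4 was above the vehicle median, the same division as for *Trem2*. The log2 fold change was -1.07 ± 0.41 (SE, edgeR adjusted *p* = 0.103), and -1.999 without INT-767 mouse 4 (edgeR adjusted *p* = 0.000359). *Fabp5* (ENSMUSG00000027533, chr3:10012548-10016607, plus strand) was between 12.5 and 21.4 CPM in vehicle livers, median 15.1, and 14.1, 5.66, 14.5 and 8.83 CPM in INT-767 mice 1 to 4, with mice 1 and 3 inside the vehicle range. Its log2 fold change was -0.57 ± 0.25 (SE, edgeR adjusted *p* = 0.14).

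*Itgax* encodes CD11c, the integrin chain that marks dendritic cells and lipid-loaded macrophages. *Itgax* (ENSMUSG00000030789, chr7:128129547-128150657, plus strand) was between 8.61 and 28.0 CPM in vehicle livers, median 15.6, and 13.5, 1.52, 9.70 and 3.97 CPM in INT-767 mice 1 to 4. It followed *Gpnmb*, with INT-767 mice 2 and 4 below the vehicle range and mice 1 and 3 inside it. The log2 fold change was -1.23 ± 0.46 (SE, edgeR adjusted *p* = 0.0984), and the edgeR adjusted *p* without INT-767 mouse 1 was 0.0405. INT-767 mouse 2 had 11 reads of *Itgax*, the lowest count of any member in any mouse, and 5.01% of its 75-base windows occur in *Itgad*.

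The secreted enzymes of the list are macrophage elastase (*Mmp12*), which cuts elastin and other matrix proteins, and lysozyme M (*Lyz2*), which most myeloid cells make. *Mmp12* (ENSMUSG00000049723, chr9:7344381-7369499, plus strand) was between 39.2 and 70.3 CPM in vehicle livers, median 46.2, and 42.9, 15.2, 27.4 and 51.5 CPM in INT-767 mice 1 to 4. *Lyz2* (ENSMUSG00000069516, chr10:117277331-117282321, minus strand) was between 173 and 443 CPM in vehicle livers, median 238, and 157, 130, 171 and 398 CPM in INT-767 mice 1 to 4. INT-767 mouse 4 lay within the vehicle range and above the vehicle median for both genes. The log2 fold change was -0.56 ± 0.29 (SE, edgeR adjusted *p* = 0.187) for *Mmp12*. For *Lyz2* it was -0.40 ± 0.34 (SE, edgeR adjusted *p* = 0.417), the smallest of the 10. Of the 75-base windows of *Lyz2*, 5.96% occur in its relative *Lyz1*.

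**Figure D2:**
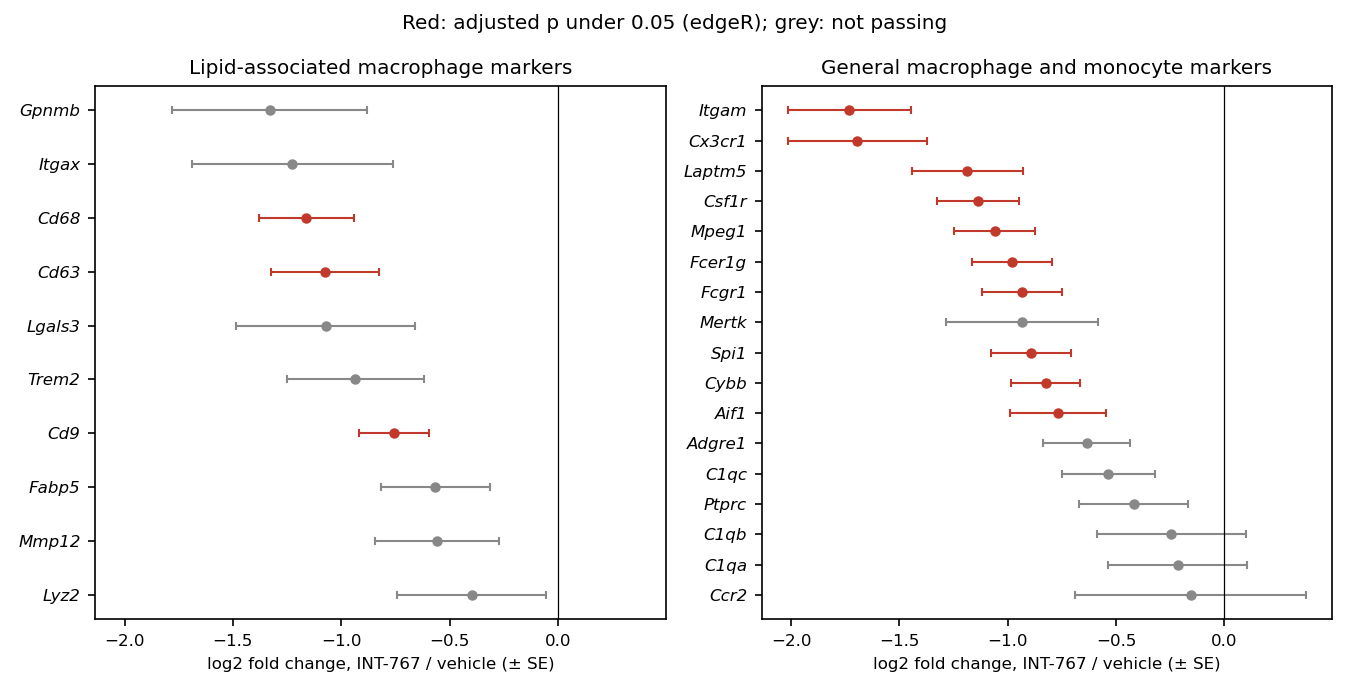
Log2 fold change of INT-767 over vehicle ± SE for the 10 lipid-associated macrophage markers (left) and the 17 tested general macrophage and monocyte markers (right), with red for genes past an edgeR adjusted *p* of 0.05. All plotted values are below 0, and 3 genes on the left and 10 on the right are red.

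The INT-767 mice did not differ from vehicle to the same extent. INT-767 mouse 2 was the lowest of its group for all 10 genes and lay below every vehicle mouse for all 10. INT-767 mouse 1 was below all vehicle mice for 6 genes, mouse 3 for 7 and mouse 4 for 6. The genes that stayed within the vehicle range in INT-767 mouse 1 were *Gpnmb*, *Fabp5*, *Itgax* and *Mmp12*, and those in INT-767 mouse 4 were *Trem2*, *Lgals3*, *Mmp12* and *Lyz2*. Summed over the 10 genes, the level was 457, 253, 416 and 780 CPM in INT-767 mice 1 to 4 and between 699 and 955 CPM in vehicle mice. Of the 780 CPM in INT-767 mouse 4, *Lyz2* gave 398. The CV between INT-767 mice was above that between vehicle mice for every member, for example 66.3% against 18.9% for *Trem2* and 94.8% against 15.9% for *Lgals3*.

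**Figure D3:**
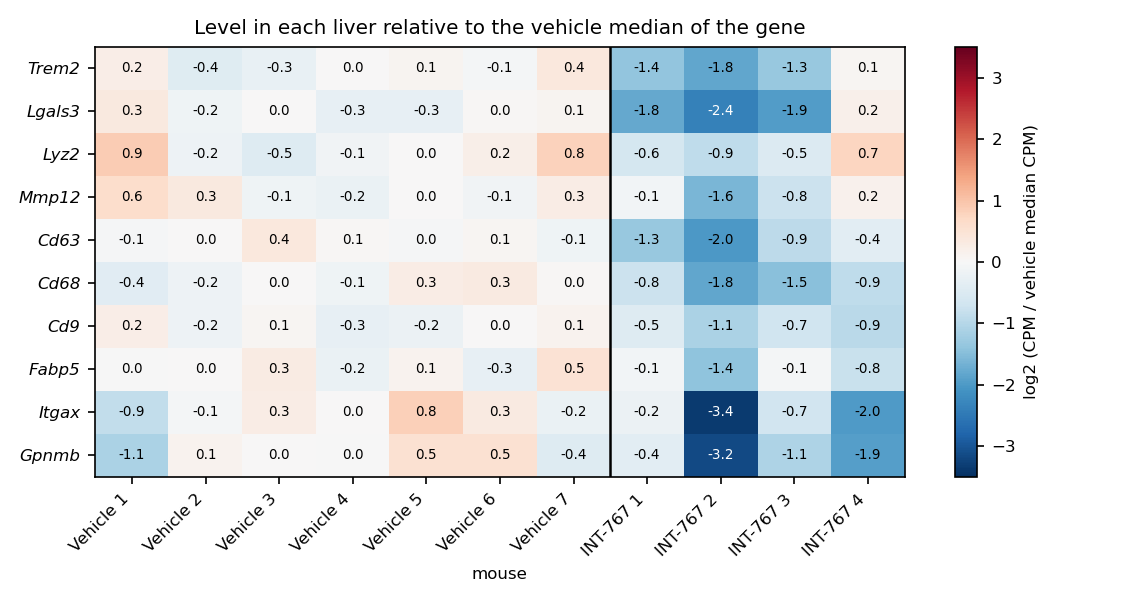
Level of each marker gene (rows) in each mouse (columns) as log2 of its CPM over the gene's vehicle median, with blue for lower and red for higher, and vehicle mice left of the line. INT-767 mouse 2 is the bluest column throughout, and INT-767 mouse 4 splits into rows above the vehicle median (*Trem2*, *Lgals3*, *Mmp12* and, highest, *Lyz2*, at 398 against 238 CPM) and low rows (*Itgax*, *Gpnmb*).

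Across the 11 livers the 45 pairs of members had Pearson correlations of log2(CPM + 1) between 0.09 and 0.98, with a median of 0.73. Within the 7 vehicle livers the median was -0.02, and 23 of the 45 pairs were below 0. These are descriptions over mice that share treatment, and across the 11 livers they hold the difference between the groups. *Gpnmb* and *Itgax* were the closest pair over 11 livers, with r = 0.98 over 11 livers (Spearman 0.96) and 0.92 over the 7 vehicle livers (Spearman 0.86). Over the vehicle livers alone *Cd9* and *Lgals3* were the closest, with r = 0.97 (Spearman 0.96) against 0.69 over 11 livers (Spearman 0.66). *Trem2* and *Lyz2* had r = 0.83 over 11 livers and over vehicle livers alone, and *Trem2* and *Lgals3* 0.96 and 0.40. *Gpnmb* and *Lyz2*, both markers of the same cells by name, had r = 0.11 over 11 livers and -0.68 over vehicle livers. The libraries also differed in how a gene's level moved with its GC content and transcript length: the Spearman correlation with GC content over 13835 genes was -0.06, -0.26, -0.16 and -0.24 in INT-767 mice 1 to 4, and -0.42, 0.02, 0.44, 0.33, 0.36, 0.30 and -0.12 in vehicle mice 1 to 7. It was thus below 0 in all 4 INT-767 mice and above 0 in 5 of the 7 vehicle mice. With transcript length the correlation was 0.15, -0.30, 0.09 and -0.32 in INT-767 mice 1 to 4, and -0.18, 0.28, 0.11, 0.23, 0.31, 0.31 and -0.23 in vehicle mice 1 to 7. With that trend removed from each library, an alternative chosen after seeing the data, the pairs had a median of 0.85 and a lowest value of 0.34 over 11 livers, and a median of 0.07 with 19 of 45 below 0 over vehicle livers. *Gpnmb* and *Lyz2* then had r = 0.40 over 11 livers and -0.47 over vehicle livers, and *Gpnmb* and *Itgax* 0.97 and 0.85. On those levels *Cd9*, *Cd63*, *Cd68* and *Mmp12* did not overlap between groups, with all INT-767 mice lower, as was found for 4.02% of all genes with the correction. *Trem2* in INT-767 mouse 4 was 23.7 CPM on that scale, still within the vehicle range.

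Outside the list, the genes whose levels were most like *Trem2* over the 11 livers were *Reep5* (Pearson r = 0.98), *Olfml3* (0.97), *Hpgds* (0.96), *Shc2* (0.96) and *C3ar1* (0.96), by the highest correlation of log2(CPM + 1) among the tested genes. *Hpgds*, the prostaglandin D synthase of haematopoietic cells, was between 9.15 and 14.7 CPM in vehicle livers and 5.77, 3.04, 5.06 and 9.05 CPM in INT-767 mice 1 to 4. *Hpgds* fell by 0.98 ± 0.25 on the log2 scale (SE, edgeR adjusted *p* = 0.0296), and the other 4 did not pass. For *C3ar1*, the receptor of the complement fragment C3a on myeloid cells, the log2 fold change was -0.76 ± 0.25 (SE, edgeR adjusted *p* = 0.0673).

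The partners of TREM2 were a list of 10 genes that holds its adaptors (*Tyrobp*, *Hcst*), the signalling proteins behind them and the proteases that shed the receptor (*Adam10*, *Adam17*). Of the 10, 4 signalling genes fell and none rose: the kinases *Syk* and *Btk*, the phospholipase *Plcg2* and the inositol phosphatase *Inpp5d*. The median log2 fold change of the 10 was -0.78. *Adam10*, the most abundant, had a log2 fold change of 0.15 ± 0.20 (SE, edgeR adjusted *p* = 0.597). *Plcg2* was between 2.53 and 8.98 CPM in vehicle livers and 2.35, 0.690, 2.81 and 1.12 CPM in INT-767 mice 1 to 4, and it fell by 1.62 ± 0.43 on the log2 scale (SE, edgeR adjusted *p* = 0.0341). *Syk* fell by 1.26 ± 0.36 (SE, edgeR adjusted *p* = 0.0453). *Tyrobp*, the adaptor that TREM2 needs, was 23.9, 30.9, 22.5 and 67.5 CPM in INT-767 mice 1 to 4 and between 29.5 and 64.4 CPM in vehicle livers, with INT-767 mouse 4 the highest of all 11, and a log2 fold change of -0.21 ± 0.33 (SE, edgeR adjusted *p* = 0.663). None of the 4 stayed called in edgeR without INT-767 mouse 2, without INT-767 mouse 4 or without any 1 of vehicle mice 3, 4, 5 and 6, and *Plcg2* alone did without INT-767 mouse 3 or vehicle mouse 2. *Plcg2* was also the 1 of the 4 called with limma-voom or with no filter beyond 1 count, and *Syk* the 1 called when at least 10 counts were asked of every mouse. That last filter left 6 of the 10 partners to be tested, without *Plcg2* and *Btk*.

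Of 26 other genes of the lipid-associated programme, 5 fell and none rose, with a median log2 fold change of -0.35. They were *Ctss* and *Ctsk*, cathepsins of the lysosome, *Anxa5*, which binds phosphatidylserine, *Soat1*, which esterifies cholesterol for storage, and *Pld3*, a lysosomal nuclease. *Ctss* was between 128 and 177 CPM in vehicle livers and 102, 65.3, 87.3 and 76.9 CPM in INT-767 mice 1 to 4, with no overlap, and it fell by 0.90 ± 0.15 on the log2 scale (SE, edgeR adjusted *p* = 0.00573). *Ctss* stayed called without any 1 mouse, while without INT-767 mouse 2, vehicle mouse 5 or vehicle mouse 6 it was the 1 of the 5 that did. With no filter beyond 1 count *Ctss* and *Soat1* stayed called, while 8 of the 26 were called lower with DESeq2, with the offset on the longest transcript or in edgeR on omitting INT-767 mouse 4, and 9 with the offset on protein-coding length. *Apoe*, the most abundant gene of this list and one that hepatocytes make in bulk, had a log2 fold change of 0.06 ± 0.17 (SE, edgeR adjusted *p* = 0.794). Of 14 tested genes for lipid uptake, storage and efflux, *Soat1* fell and no other gene passed in edgeR with all 11 mice and TMM scaling, where 5 were lower and 1 higher at an unadjusted *p* under 0.05, and their median log2 fold change was -0.18. This count moved with the fit: 5 were called lower and 1 higher with DESeq2 and with the offset on the longest transcript, 6 lower and 1 higher with the offset on protein-coding length, and 4 lower with library size only or on omitting mouse 1 of either group. Over all tested genes, 1370 of 13898 were called lower without vehicle mouse 1 and 732 of 13985 without INT-767 mouse 1, against 649 of 13880 with all mice. In edgeR 1 was also called higher on omitting INT-767 mouse 3, and none was called lower on omitting INT-767 mouse 2, vehicle mouse 5 or vehicle mouse 6. *Plin2*, the coat of lipid droplets and the most abundant of them, was between 618 and 1451 CPM in vehicle livers and 413, 1010, 810 and 1534 CPM in INT-767 mice 1 to 4, with mouse 1 below and mouse 4 above every vehicle mouse.

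The relatives of the markers by protein family were counted as well. Of 18 tested tetraspanins *Cd9*, *Cd63* and *Cd37* fell and *Cd82* rose, with a median log2 fold change of -0.11. *Cd37*, a leukocyte tetraspanin, fell by 1.26 ± 0.33 (SE, edgeR adjusted *p* = 0.0329), and *Cd81*, the most abundant, had a log2 fold change of 0.26 ± 0.22 (SE, edgeR adjusted *p* = 0.403). Called tetraspanins were 4 lower and 2 higher with DESeq2 and in edgeR on omitting mouse 1 of either group. These fits also called more of all tested genes than the main fit, with 649 lower and 700 higher. DESeq2 called 1368 lower and 1443 higher. Without vehicle mouse 1 it was 1370 and 1906, and without INT-767 mouse 1 it was 732 and 1007. Of 6 tested genes of the galectin list, *Lgals3bp*, which encodes the secreted binding partner of galectin-3, fell by 0.77 ± 0.20 (SE, edgeR adjusted *p* = 0.0357), and the median was -0.38. Called lower were 3 of the 6 with the offset on the longest transcript, and 2 with the other offset, with limma-voom or on omitting INT-767 mouse 4. *Lgals9*, the most abundant, had a log2 fold change of 0.11 ± 0.15 (SE, edgeR adjusted *p* = 0.598). None of 5 tested fatty acid-binding proteins was called in either direction in the edgeR test of all 11 mice with TMM scaling, with 1 lower (*Fabp5*) and 1 higher at an unadjusted *p* under 0.05, and the median was -0.21. *Fabp1*, the fatty acid-binding protein of hepatocytes and the most abundant, had a log2 fold change of 0.43 ± 0.34 (SE, edgeR adjusted *p* = 0.377). 1 fatty acid-binding protein was called higher with DESeq2 or on omitting INT-767 mouse 1 or vehicle mouse 1, and 1 lower with the offset on protein-coding length or on omitting INT-767 mouse 4. The 4 MiT/TFE regulators of lysosomal genes also gave no call in that edgeR test, with 1 lower and 1 higher at an unadjusted *p* under 0.05 and a median of -0.01. For *Tfe3*, the most abundant of them, the log2 fold change was -0.61 ± 0.23 (SE, edgeR adjusted *p* = 0.0947). In edgeR 1 of them was called higher with the offset on protein-coding length, and 1 lower on omitting mouse 1 of either group. Without INT-767 mouse 2, none of the tetraspanins or galectins was called. *Cd82* lost its call without any 1 mouse other than INT-767 mouse 1 and vehicle mouse 1, and also with library size only, upper-quartile factors, limma-voom and both other filters. *Cd37* was also not called without INT-767 mouse 3 or 4 or vehicle mouse 3, 4 or 5, or with limma-voom, and *Lgals3bp* was also not called without INT-767 mouse 4 or any 1 of vehicle mice 3 to 6, or with no filter beyond 1 count.

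Markers of macrophages in general were lower too. Of 17 tested general macrophage and monocyte markers 10 fell, none rose, and the median log2 fold change was -0.89. *Csf1r*, the receptor for the growth factor that keeps macrophages alive, was between 72.8 and 132.2 CPM in vehicle livers, median 93.6, and 44.3, 40.2, 43.7 and 53.6 CPM in INT-767 mice 1 to 4. It fell by 1.14 ± 0.19 on the log2 scale (SE, edgeR adjusted *p* = 0.00498), in all 4 mice below the vehicle range, INT-767 mouse 4 included. *Mpeg1*, the perforin of macrophages and the most abundant gene of the list, fell by 1.06 ± 0.19 (SE, edgeR adjusted *p* = 0.00691). *Itgam*, the integrin chain CD11b, fell by 1.73 ± 0.29 (SE, edgeR adjusted *p* = 0.00498). *Fcer1g*, the signalling chain of Fc receptors, fell by 0.98 ± 0.19 (SE, edgeR adjusted *p* = 0.00915), and *Cx3cr1*, the fractalkine receptor, by 1.69 ± 0.32 (SE, edgeR adjusted *p* = 0.00955). *Adgre1*, which encodes F4/80, was 16.2, 19.6, 14.9 and 28.8 CPM in INT-767 mice 1 to 4 and between 25.6 and 40.3 CPM in vehicle livers, and did not pass (log2 fold change -0.64 ± 0.20 SE, edgeR adjusted *p* = 0.0619). Without INT-767 mouse 2, 6 of the 10 stayed called, *Csf1r*, *Itgam*, *Mpeg1* and *Fcer1g* among them, while *Cx3cr1* lost its call. The summed level of the list was 539, 483, 497 and 903 CPM in INT-767 mice 1 to 4 and between 809 and 1140 CPM in vehicle livers.

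Set against *Csf1r* in the same liver, the groups overlapped for all 10 members. As *Csf1r* itself separated the groups, this ratio separated them, in either direction, for 43.9% of all other tested genes. The ratio of *Trem2* to *Csf1r* was 0.233, 0.189, 0.244 and 0.525 in INT-767 mice 1 to 4 and between 0.198 and 0.437 in vehicle livers, median 0.245. The ratio of *Cd68* to *Csf1r* was 0.375, 0.199, 0.235 and 0.286 in INT-767 mice and between 0.257 and 0.319 in vehicle livers. Members went both ways: the INT-767 median of the ratio over the vehicle median was 1.88 for *Mmp12*, 1.603 for *Lyz2*, 1.31 for *Fabp5* and 1.22 for *Cd9*, 0.957 for *Cd63* and 0.973 for *Trem2*, and 0.739 for *Gpnmb* and 0.615 for *Lgals3*, with *Cd68* at 0.915 and *Itgax* at 0.890. Taken to the summed general macrophage list instead, the ratios of all 10 members also overlapped, and 30.1% of all tested genes did not. On that scale the same quotient of medians was lower for every member: 1.23 for *Lyz2*, 1.198 for *Fabp5*, 1.16 for *Mmp12* and 1.08 for *Cd9*, 0.807 for *Cd63* and 0.762 for *Trem2*, and 0.655 for *Itgax*, 0.6254 for *Cd68*, 0.523 for *Lgals3* and 0.504 for *Gpnmb*. The values close to 1 for *Trem2*, *Cd63* and *Cd68* were thus those against *Csf1r*. These ratios carry no test.

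Of 10 tested markers of resident Kupffer cells, *Siglec1*, a sialic acid receptor, fell and *Slc40a1*, the iron exporter, rose, with a median log2 fold change of -0.54. *Cd5l*, the most abundant Kupffer cell gene of the list, was between 174 and 282 CPM in vehicle livers and 147, 173, 136 and 404 CPM in INT-767 mice 1 to 4. The summed level was 426, 609, 373 and 859 CPM in INT-767 mice 1 to 4 and between 398 and 584 CPM in vehicle livers, so that INT-767 mouse 2, lowest for all 10 lipid-associated markers, was above the vehicle range here. Of its 609 CPM, *Slc40a1* gave 298 and *Clec4f*, a Kupffer cell lectin, 105, each above its vehicle range. *Cd5l* and *Siglec1* lay below theirs in this mouse. Of the 10 genes, 8 had a log2 fold change below 0. Neither call held without INT-767 mouse 2 or without INT-767 mouse 4, and that of *Slc40a1* was also lost without any 1 of vehicle mice 3 to 7, with library size only and with upper-quartile factors. *Siglec1* was not tested when at least 10 counts were asked of every mouse, a filter that left 5 of the 10 genes. Called lower were 2 of the 10 with library size only or with the offset on the longest transcript, and 3 with the offset on protein-coding length. Of 6 tested growth factors and attractants of macrophages, *Csf1*, the ligand of CSF1R, fell by 0.79 ± 0.19 (SE, edgeR adjusted *p* = 0.0277), and *Cx3cl1*, the ligand of CX3CR1, fell by 1.53 ± 0.29 (SE, edgeR adjusted *p* = 0.00985). *Csf2*, listed but not tested, had no count in any mouse. *Mif*, a cytokine and the most abundant of these, had a log2 fold change of 0.29 ± 0.13 (SE, edgeR adjusted *p* = 0.148). *Cx3cl1* stayed called without any 1 mouse, and *Csf1* did not without INT-767 mouse 2 or 4 or vehicle mouse 4 or 6.

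The tissue label was checked against 12 hepatocyte markers, all of which were tested. *Alb*, the most abundant, was between 37214 and 51485 CPM in vehicle livers and 79586, 77762, 60228 and 37713 CPM in INT-767 mice 1 to 4. The hepatocyte list summed to 111973, 122015, 102065 and 84006 CPM in INT-767 mice 1 to 4 and to between 65958 and 87655 CPM in vehicle livers, with a median log2 fold change of 0.43 and no gene called in edgeR, where 6 were higher and none lower at an unadjusted *p* under 0.05. The share of all tested genes higher at that threshold is not given here, so these 6 are a description only. Called higher were 5 of the 12 with DESeq2, 3 with either GC content and length offset, and, with 1 mouse left out in edgeR, 3 on omitting vehicle mouse 1, 3 on omitting INT-767 mouse 4, 2 on omitting INT-767 mouse 1, and 1 on omitting mouse 3 of either group. Over all tested genes, 1443 of 13880 were called higher with DESeq2, and 1073 and 1104 of 13835 with the 2 offsets. On omitting vehicle mouse 1 it was 1906 of 13898. On omitting INT-767 mouse 4, 1 or 3 it was 461 of 13955, 1007 of 13985 and 788 of 14329, and without vehicle mouse 3 it was 429 of 13875. INT-767 mouse 4, nearest to vehicle in the summed macrophage markers, was also the INT-767 mouse inside the vehicle range for this sum. That place leaned on *Alb*, which gave the most to the sum. *Apob* ran the other way, at 8354, 18893, 13397 and 26745 CPM in INT-767 mice 1 to 4. In vehicle livers *Apob* was between 5511 and 15668 CPM. Of 12 tested stellate cell markers 3 fell, *Col1a1*, *Col1a2* and *Pdgfrb*, none of which stayed called without INT-767 mouse 2, INT-767 mouse 4, vehicle mouse 5 or vehicle mouse 6, while *Col1a2* alone did without vehicle mouse 3 or 4 and *Pdgfrb* alone with no filter beyond 1 count. On omitting INT-767 mouse 4, 3 other genes of the list were called lower. Called lower were 4 with DESeq2, limma-voom, library size only or upper-quartile factors. The same count came with at least 10 counts in every mouse, and on omitting vehicle mouse 1 or 7. The median log2 fold change of these 12 was -0.79, with 10 below 0 and 5 lower at an unadjusted *p* under 0.05 in edgeR. For *Col1a1* it was -2.96 ± 0.74 and for *Col1a2* -2.35 ± 0.57 (SE, edgeR adjusted *p* = 0.0297 and 0.0272). *Dcn*, the matrix proteoglycan decorin and the most abundant, had a log2 fold change of 0.22 ± 0.20 (SE, edgeR adjusted *p* = 0.441). The summed level of the list was 698, 709, 801 and 1186 CPM in INT-767 mice against 886 to 1963 CPM in vehicle livers. Other cell types that share single markers with the list were also followed. Of 4 tested neutrophil markers *Csf3r* fell, and *Ly6g*, which was not tested, was at or near 0. The other 3 tested were not called and lay above 0, with log2 fold changes of 0.31 for *S100a8*, 0.46 for *S100a9* and 0.12 for *Mmp8*. Their edgeR adjusted *p* was 0.679, 0.571 and 0.874, and the median of the 4 was 0.21. Over all 11 listed neutrophil markers the sum was between 4.64 and 31.6 CPM in INT-767 mice and between 13.1 and 20.2 CPM in vehicle livers, led by *S100a9* at 15.7 CPM in INT-767 mouse 4. With all 11 mice and TMM scaling, no gene was called in edgeR among 7 tested dendritic cell markers (median -0.31, 2 lower and none higher at an unadjusted *p* under 0.05), 8 lymphocyte markers (median -0.51, 2 lower) or 11 endothelial markers (median -0.29, 4 lower), and of 9 cholangiocyte markers *Muc1* fell (median -0.63, 5 lower). The most abundant of each had log2 fold changes of -0.57 ± 0.20 for *Irf8*, -1.10 ± 0.43 for *Cd79b*, -0.60 ± 0.27 for *Eng* and -0.31 ± 0.53 for *Tspan8* (SE, edgeR adjusted *p* = 0.0844, 0.105, 0.147 and 0.694). Other fits called 1 dendritic cell marker lower (DESeq2, library size only, and edgeR on omitting INT-767 mouse 4 or vehicle mouse 1), 1 lymphocyte marker lower (the offset on protein-coding length) and endothelial markers lower (1 with DESeq2, 1 on omitting INT-767 mouse 1 and 3 on omitting vehicle mouse 1). Cholangiocyte markers called lower were 4 with DESeq2, 3 on omitting INT-767 mouse 3, and 2 with library size only, upper-quartile factors, either offset or on omitting vehicle mouse 1. Over all tested genes, 1368 of 13880 were called lower with DESeq2 and 1370 of 13898 on omitting vehicle mouse 1. On omitting INT-767 mouse 1 or 3 it was 732 of 13985 and 619 of 14329. In the edgeR fit of all 11 mice it was 649 of 13880. With 1 mouse left out at a time, *Csf3r* and *Muc1* lost their calls on omitting INT-767 mouse 2 and on no other, and no neutrophil marker was tested when at least 10 counts were asked of every mouse. The part of these cell types in the levels of the lipid-associated markers was not tested.

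**Figure D4:**
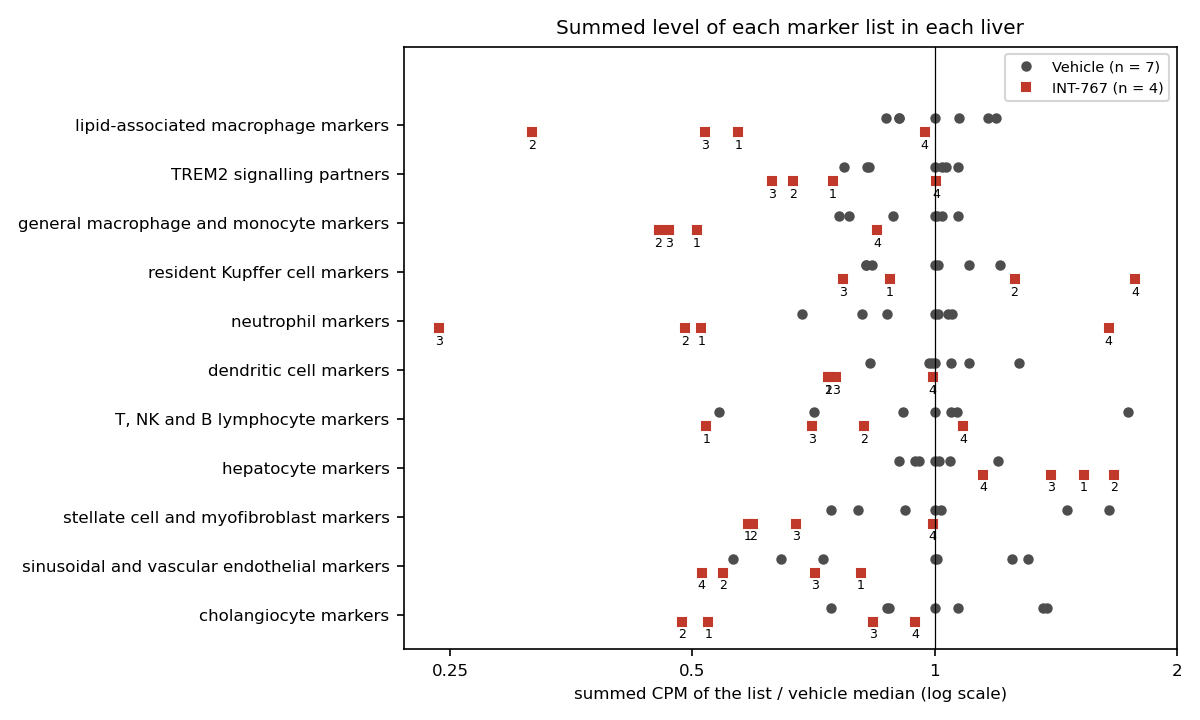
Summed CPM of each marker list in each liver, divided by the list's vehicle median, on a log axis, with vehicle mice as grey circles and INT-767 mice as red squares numbered by mouse. INT-767 mice 1 to 3 lie left of all vehicle mice for the lipid-associated and general macrophage lists, and right of them for hepatocyte markers, while INT-767 mouse 4 lies within the vehicle range for these 3 lists. Single genes weigh heavily in these sums. In INT-767 mouse 4 *Lyz2* gave 398 of 780 CPM, while 6 of the 10 lipid-associated markers were below every vehicle mouse. *Alb* gave 37713 of 84006 CPM in INT-767 mouse 4 and 79586 of 111973 CPM in mouse 1.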

How the data were processed

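Liver RNA of 7 vehicle and 4 INT-767-treated mice was sequenced from stranded poly(A) libraries. The authors deposited their gene-level read counts in 1 table, not normalized. The submitters' processing notes name STAR 2.4.0 and GRCm38, the supplementary methods another STAR version, and how reads were assigned to genes, with which strand setting and in which batches, is not given in the sources used here. Totals were between 7966963 and 15295230 counts in vehicle mice and between 7381211 and 16022459 in INT-767 mice. No 2 libraries were copies, since the closest pair had a median chi-square per gene of 1.10, where draws of 1 library would give 0.455. Each sample is 1 mouse.

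Counts were fitted with treatment as the only term in edgeR 4.0.16 under R 4.3.3 (TMM factors between 0.843 and 1.14, filterByExpr defaults, 10 for the minimum count and 15 for the minimum total, robust glmQLFit and glmQLFTest), with Benjamini-Hochberg adjustment over 13880 genes. The Mann-Whitney test enumerated all 330 assignments. The scripts were tested on simulated counts. Gene coordinates and lengths are those of GENCODE M21 on GRCm38, and 24283 genes without a symbol in the table were named by identifier. Alternatives were RLE, upper-quartile or library-size scaling, 2 other filters, DESeq2 1.42.0, limma-voom (limma 3.58.1), a block for the mouse number, an offset for GC content and transcript length (lowess, span 0.3), each mouse left out and a threshold of 0.01. The offset with protein-coding length and the levels with that trend removed were chosen after seeing the data.

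The 10 members and the 17 other lists were chosen with earlier results of these data known. Named beside the members are up to 5 called genes and the most abundant gene of each list, *Csf1r*, *Adgre1*, *Tyrobp*, markers at or near 0, and the 5 genes most like *Trem2*. *Apob* and *Clec4f* were added for their weight in a summed level. The tested neutrophil and general macrophage markers that were not called were added as well.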

Additional observations from a re-analysis of the deposited data

Results flagged for a closer look

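In 28 groups of mice examined, vehicle and INT-767 apart for each member, *Csf1r*, *Adgre1*, *Tyrobp* and the summed general macrophage markers, 5 held a mouse whose gap to the nearest other mouse was large for the range of its group. Chance alone flags about 1 in 20 such groups. INT-767 mouse 4 stood above the other 3 INT-767 mice for *Trem2* (28.1 CPM, with the next at 10.7), *Lgals3* (136.0 CPM, with the next at 34.6), *Lyz2* (398 CPM, with the next at 171) and the summed general macrophage markers (903 CPM, with the next at 539). These 4 flags come from 1 liver and genes that move together, so they are not separate observations. Vehicle mouse 3 stood above the other vehicle mice for *Cd63* (131.9 CPM, with the next at 108.2). The design holds 1 contrast, so no difference of effect between tissues or times was examined.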

How the results depend on the processing

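Over 23 alternatives no member's fold change turned its direction, DESeq2 giving none an opposite sign and *Lgals3* no adjusted *p*, and no member was called higher under any. *Cd68* lost its call under 2 alternatives, and *Cd9* and *Cd63* under 4 each. With a block for the mouse number, alone or with the GC content and length offset, 0 genes were called higher, 0 lower and 0 of the members, so that no call of any list held (edgeR adjusted *p* under the block alone 0.381 for *Cd68*, 0.359 for *Cd9* and 0.350 for *Cd63*). The labels do not say that the numbers pair mice. Deviations of same-numbered mice correlated at -0.69, 0.215, 0.148 and -0.482, and no INT-767 mouse correlated best with its own number. These deviations also hold the trends with GC content and transcript length, so they cannot settle whether the mice were paired. Whether the block belongs in the fit is thus not known. Calls over all genes, 700 higher and 649 lower, were 1443 and 1368 with DESeq2 (6 members lower: also *Trem2*, *Gpnmb* and *Itgax*), 331 and 1026 with library size only (4 members, also *Trem2*, median log2 fold change -1.23), 467 and 812 with upper-quartile factors, 1073 higher and 5 members with the GC content and length offset (also *Lgals3* and *Mmp12*), 1104 higher and 5 members with the offset on protein-coding length (also *Trem2* and *Mmp12*), 5 members with limma-voom (also *Trem2* and *Lgals3*), and 158 and 87 with 1 member, *Cd68*, at a threshold of 0.01. The first offset used the longest transcript, 4784 bases for *Trem2*, whose longest protein-coding transcript has 1088. Leaving out 1 mouse at a time gave between 164 and 1906 genes called higher and between 110 and 1370 lower, between 1 and 5 members lower, and a median of the members between -1.09 and -0.80. Over all genes the lowest counts came without INT-767 mouse 2 and the highest without vehicle mouse 1. The cause was not tested.

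Only 4 INT-767 livers were measured, and members held between 11 and 7134 reads a mouse. *p*-values measure the spread between these samples. Counts do not separate molecules from their copies, the strand setting of the counting is unknown, and only RNA of whole liver was measured.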

Other observations

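Genes most like *Gpnmb* over the 11 livers, a search chosen after its values were seen, were *Grhl1* (Pearson r = 0.98), *Gusb* (0.97), *Robo1* (0.97), *Etv3* (0.97) and *Itgal* (0.97), none of which is among the 5 genes most like *Trem2*. Both searches used levels from which the trend with GC content and transcript length was not removed. Whether the sets would stay apart without that trend was not tested. *Gusb*, the lysosomal enzyme beta-glucuronidase, was between 42.9 and 68.9 CPM in vehicle livers and 50.6, 32.4, 45.1 and 34.7 CPM in INT-767 mice 1 to 4, with mice 2 and 4 low as for *Gpnmb* itself. *Itgal*, the leukocyte integrin chain CD11a, was between 11.9 and 32.5 CPM in vehicle livers and 14.4, 4.97, 12.9 and 7.86 CPM in INT-767 mice 1 to 4. None of these 5 genes passed in edgeR, with adjusted *p* between 0.0501 and 0.191.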
